A study of Caenorhabditis elegans with 36 samples.

Results

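Chromosome X of Caenorhabditis elegans was divided into non-overlapping windows of 50 kb counted from position 1, and each X gene was assigned to the window that holds its smallest start coordinate. This gave 355 X windows of 2008 in the whole genome, with 1652 on the autosomes I to V and 1 for the mitochondrial genome. The X windows hold 6021 of the 46926 listed genes, with 2 to 41 genes and a median of 16 genes per window. No expression value was used to draw the windows. Counts of all genes in a window were summed, all 355 X windows passed the filter on low counts, and each was compared between genotypes within a stage, with 1645 autosomal windows beside them.

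The study measured poly(A) RNA of whole animals by RNA sequencing in 8 groups of 3 biological replicates each, 24 libraries in all. Embryos labelled xnp1 were set against N2 embryos, and L1 larvae labelled xnp1 against N2 L1 larvae; the series' design text calls these animals an xnp-1 knockdown. Adults were kept at 20 °C, embryos were released with hypochlorite, and the L1 larvae had hatched and stayed in M9 buffer for about 11 hours at 20 °C. At the L4 stage, larvae labelled xnp-1, gsox-1 or, for the double mutant, xnp-1;gsox-1, described as mutant backgrounds, were set against N2 larvae, all grown at 25 °C from the L1 stage. N2 is the laboratory wild-type strain. No allele is named for either gene, and no transgene or drug is named for any group. The L4 libraries were sequenced at a centre other than that of the earlier stages, so no level is compared between these sets.

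XNP-1 is the worm relative of ATRX, a SNF2-type chromatin remodeller that in mammals works with a histone chaperone to place the variant histone H3.3 in heterochromatin. Hermaphrodites carry a pair of X chromosomes and males a single one, and a condensin-like dosage compensation complex binds both hermaphrodite X chromosomes and lowers their transcription in the soma. In the germ line the X is largely silent, and genes for germ cell functions lie mostly on autosomes. Genes of the soma, such as those of muscle, neurons, cuticle and the adult intestine, are well represented on the X.

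Library totals ran from 29896459 to 41520291 counts in embryos and L1 larvae and from 39004451 to 45391494 counts in L4 larvae. The xnp-1 gene itself, on chromosome I, had 123, 134 and 138 CPM (counts scaled to a common library size) in xnp1 embryos, against 384, 433 and 386 CPM in N2 embryos, a log2 change of -1.61 (SE 0.14, adjusted p = 6.0e-05). In xnp1 L1 larvae it averaged 170 ± 6.62 CPM, against 249 ± 33.3 CPM in N2 L1 larvae (SD, n = 3 each), which did not pass the threshold (adjusted p = 0.135). At L4 it averaged 46.0 ± 5.73 CPM in xnp-1 larvae and 29.3 ± 7.64 CPM in xnp-1;gsox-1 larvae, against 75.5 ± 13.3 CPM in N2 larvae, and both differences passed the threshold (adjusted p = 0.0131 and 0.0124). The gsox-1 gene, on chromosome II, averaged 78.5 ± 3.54 CPM in gsox-1 larvae and 70.5 ± 24.7 CPM in xnp-1;gsox-1 larvae, against 56.9 ± 12.7 CPM in N2 larvae, so its RNA level was not lower in the libraries labelled gsox-1. Since the labels give no allele, this level does not check the gsox-1 label. Replicate 1 of the xnp1 embryos stood apart, with X genes at 12.9% of nuclear counts against 15% and 14.8% in the other xnp1 embryo libraries. Replicate 1 of xnp-1;gsox-1 and of N2 L4 larvae had 5.52% and 4.13% of counts from mitochondrial genes, against 1.42% to 2.43% in the other L4 libraries.

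Most of the X windows called in any comparison with N2 came from L4 larvae labelled xnp-1. There, 155 X windows were lower and 45 higher than in N2 larvae, at an adjusted p under 0.05. No X window passed that threshold in xnp1 embryos, xnp1 L1 larvae or gsox-1 L4 larvae, and 1 passed it in xnp-1;gsox-1 L4 larvae. The plot of change along the chromosome shows the 5 comparisons with N2.

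**Figure D1:**
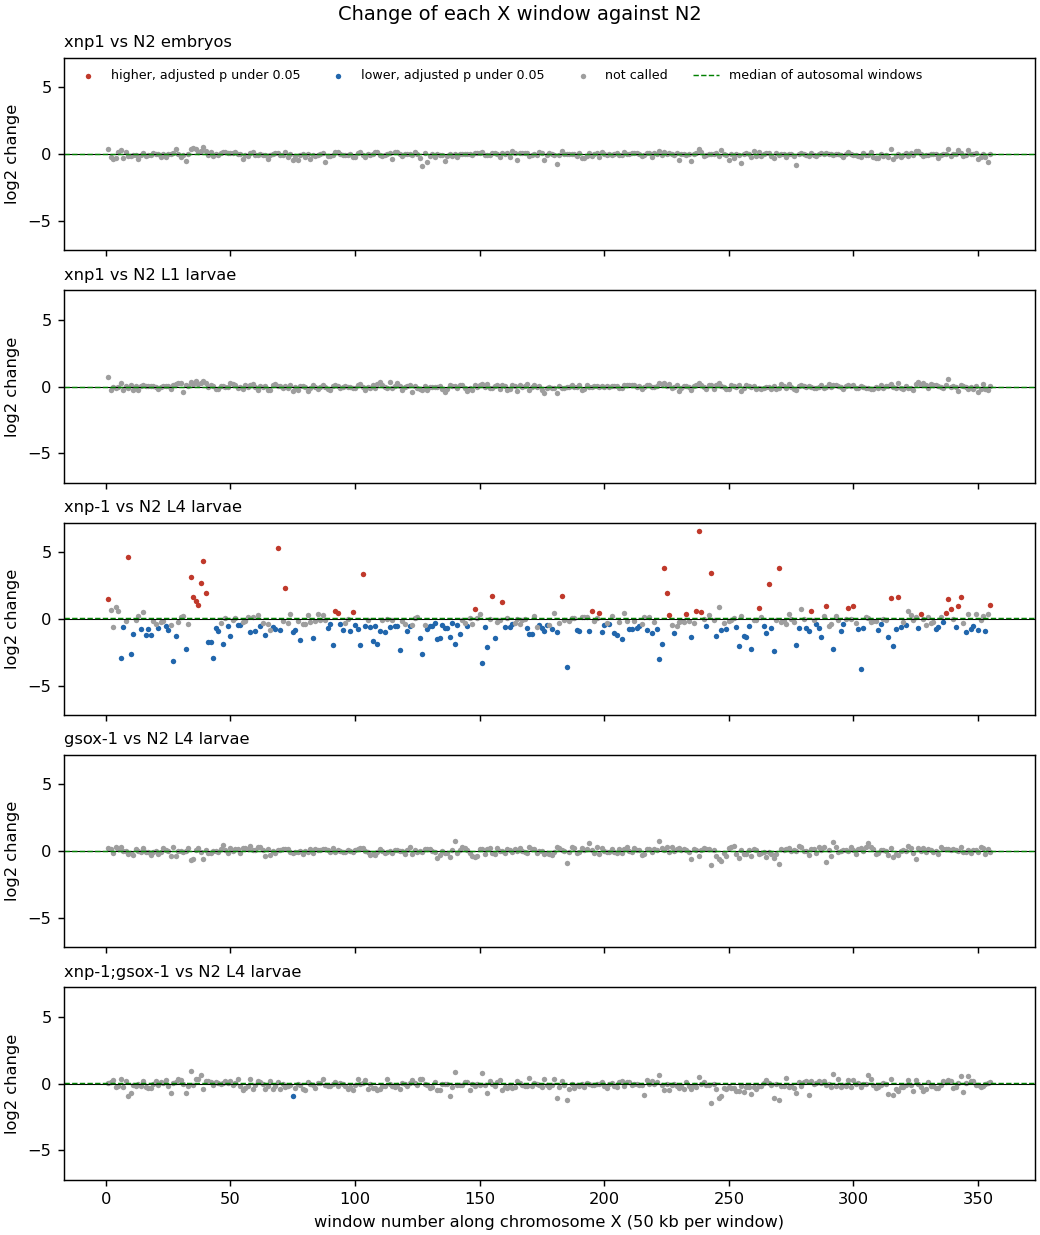
Log2 change of each of the 355 X windows, in order along the chromosome (x axis, window number), for xnp1 embryos, xnp1 L1 larvae, and L4 larvae labelled xnp-1, gsox-1 or xnp-1;gsox-1, against N2 of the same stage (n = 3 libraries each); red windows are higher and blue windows lower at an adjusted p under 0.05, and the green dashed line is the median of autosomal windows. Blue windows spread along the whole chromosome in xnp-1 L4 larvae, 155 of 355, while the embryo, L1 and gsox-1 panels hold no coloured window.

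In xnp1 embryos, RNA from the X windows lay close to that of N2 embryos. The median log2 change was 0.00 over X windows, with quartiles of -0.10 and 0.07, and 0.02 over autosomal windows. The edgeR quasi-likelihood test called 0 of 355 X windows, while 21 had an unadjusted p under 0.05, 15 of them lower and 6 higher, and DESeq2 called 3, all lower. Among autosomal windows 0.608% were called. The libraries of both genotypes did not overlap in 20.3% of X windows and in 25.9% of autosomal windows.

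The X window with the smallest p in embryos, named after its values were seen, was X_129 (chrX:6400001-6450000). It had 822, 1125 and 1087 CPM in xnp1 embryos, against 1624, 1314 and 1531 CPM in N2 embryos. All xnp1 libraries lay below all N2 libraries, with a log2 change of -0.56 (SE 0.13) that missed the threshold (adjusted p = 0.0950). The gene mup-2, which encodes a muscle troponin T, supplied 71.4% of its counts over the embryo and L1 libraries.

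Of 2589 tested X genes, 2 rose and 4 fell in embryos, while 1.27% of autosomal genes were called. This count depended on the fit: DESeq2 called 47 X genes, 36 of them lower, the groups fitted alone gave 49, 45 of them lower, and the replicate block 22, 19 of them lower. It was 3 without N2 replicate 1, xnp1 replicate 2 or xnp1 replicate 3. The strongest increase by p was that of WBGene00219303 (chrX:16887140-16889262), which had 18.9, 27.7 and 27.1 CPM in xnp1 embryos, against 4.23, 7.90 and 5.91 CPM in N2 embryos. Its libraries did not overlap (log2 change 2.03, SE 0.24, adjusted p = 0.00113). F28H6.8 also rose, at 2.00, 1.45 and 2.06 CPM in xnp1 embryos, against 0.268, 0.284 and 0.486 CPM in N2 embryos (log2 change 2.42, SE 0.33, adjusted p = 0.0031).

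The 4 X genes that fell in xnp1 embryos included tag-18 (chrX:3731894-3734036), at 12.1, 10.4 and 9.63 CPM in xnp1 embryos, against 31.7, 20.7 and 26 CPM in N2 embryos. Every xnp1 library was below every N2 library, and the log2 change was -1.28 (SE 0.23, adjusted p = 0.0186). The transporter gene pgp-3, a P-glycoprotein, fell by 1.13 on the log2 scale (SE 0.22, adjusted p = 0.024), with 9.68, 6.24 and 7.41 CPM in xnp1 embryos, against 18.6, 15.6 and 17 CPM in N2 embryos. The C-type lectin gene clec-265 fell by 1.23 (SE 0.26, adjusted p = 0.0432), and Y62H9A.9 by 3.08 (SE 0.44, adjusted p = 0.00441). The calls of clec-265, pgp-3 and tag-18 rest on the full set of libraries: clec-265 lost its call without any 1 of the 6 libraries, pgp-3 without N2 replicate 1 or 3 or xnp1 replicate 2 or 3, and tag-18 without any 1 library other than N2 replicate 2.

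In xnp1 L1 larvae the X windows also lay close to N2. The median log2 change was 0.00 over both X and autosomal windows, and the X range was -0.45 to 0.69. edgeR called 0 X windows, 14 had an unadjusted p under 0.05, 7 in each direction, and DESeq2 called 1, higher in xnp1. Of autosomal windows 0.182% were called. A test of whether the effect of xnp1 differed between the stages called 0 X windows, with 3 at an unadjusted p under 0.05, and 0 by DESeq2, and 0.0% of autosomal windows.

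The X window with the smallest p in L1 larvae, also named after its values were seen, was X_338 (chrX:16850001-16900000), which holds WBGene00219303. It had 119, 142 and 145 CPM in xnp1 L1 larvae, against 77.3, 97.8 and 105 CPM in N2 L1 larvae (log2 change 0.53, SE 0.13, adjusted p = 0.227). The groups did not overlap, though the change missed the threshold. In embryos the same window had 195, 167 and 166 CPM in xnp1 animals, against 129, 139 and 138 CPM in N2 animals, again without overlap.

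Only 2 X genes were called in L1 larvae, both higher, against 0.55% of autosomal genes; with the replicate number as a block there were 5, of which 3 were higher. WBGene00219303 had 31, 36.7 and 38.8 CPM in xnp1 L1 larvae, against 11.9, 10.4 and 10.6 CPM in N2 L1 larvae (log2 change 1.69, SE 0.23, adjusted p = 0.00537). It was called higher at both early stages, and was not called in xnp-1 L4 larvae (adjusted p = 0.202). WBGene00021342 (chrX:16541-34439), at the left end of the chromosome in window X_1, had 18.7, 16.2 and 19.2 CPM in xnp1 L1 larvae, against 8.77, 8.49 and 9.03 CPM in N2 L1 larvae (log2 change 1.04, SE 0.19, adjusted p = 0.0309). Its call was lost without any 1 of the 6 L1 libraries.

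At L4 the xnp-1 larvae differed from N2 across most of the X. Of 355 X windows, 45 rose and 155 fell, 12.7% and 43.7%, while 30.8% of autosomal windows rose and 24.4% fell. The median log2 change was -0.32 over X windows, with quartiles of -0.75 and 0.10 and 253 windows below 0, and 0.03 over autosomal windows. The medians of the autosomes ran from -0.05 on chromosome V to 0.14 on chromosome I, so X had the lowest of the 6. The plot by chromosome shows these medians in each comparison. Libraries did not overlap in 66.2% of X windows and 67.7% of autosomal windows.

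**Figure D2:**
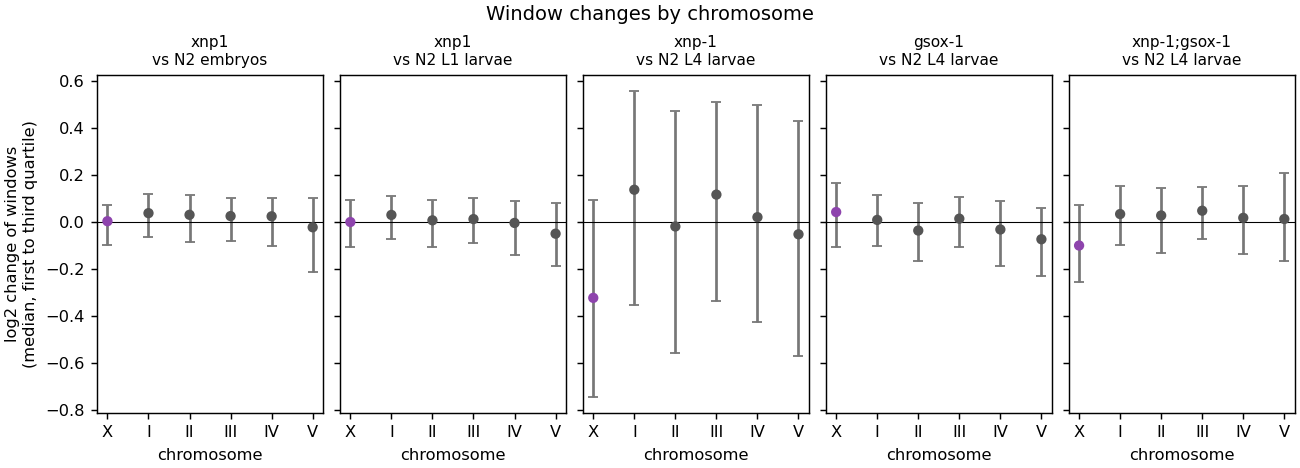
Median (point) and quartiles (bar) of the log2 change of 50 kb windows on X and on each autosome, in the 5 comparisons with N2. In xnp-1 L4 larvae the X median is -0.32 and those of the autosomes lie between -0.05 and 0.14; in xnp1 embryos and L1 larvae the X median is 0.00.

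Genes typical of oocytes, germ line and yolk moved in the same larvae. The 17 listed oocyte and early embryo genes, all autosomal, summed to 8295 to 9781 CPM in the xnp-1 libraries, against 222 to 503 CPM in N2 libraries, and all 17 were called higher. The 16 listed germline genes, also autosomal, summed to 3177 to 3479 CPM in xnp-1 larvae, against 1204 to 1641 CPM in N2 larvae, with 15 called higher. The 53 listed sperm genes, with none on X, summed to 1773 to 2200 CPM in xnp-1 larvae, against 1490 to 2780 CPM in N2 larvae, with 4 higher and 11 lower of 51 tested. No listed oocyte, germline or yolk gene was at 0 in any group. The part of these levels in the X window changes was not tested. Whole animals were measured, so fewer cells of a type and less RNA per cell cannot be told apart. The labels give the L4 stage and no finer age. A difference in developmental progress between the groups was therefore not tested, and cannot be told apart from a difference by genotype.

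Measured library by library, the position of X relative to the autosomes was taken as the median log2 CPM of X windows minus that of autosomal windows. It was -1.25, -1.14 and -1.22 in xnp-1 L4 larvae, against -0.86, -0.71 and -0.59 in N2 L4 larvae. The groups did not overlap, and the difference of -0.48 had an exact permutation p of 0.1, two-sided, the smallest that 3 against 3 libraries allow (0.5 after adjustment over the 5 comparisons). Taken over the tested genes in place of windows, the same difference was 0.03, of opposite sign. The share of nuclear counts from X genes also did not separate these groups, at 9.85%, 10.7% and 10.5% in xnp-1 larvae, against 9.76%, 10.3% and 11.6% in N2 larvae (exact permutation p = 0.9).

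That share holds a large yolk component. The 5 X-linked vitellogenin genes gave 15.4% of X counts in xnp-1 larvae, 0.134% in gsox-1 larvae and 0.0105% in xnp-1;gsox-1 larvae, against 0.175% in N2 larvae. In the other comparisons with N2 the libraries of the genotypes overlapped on both measures of X. The exact test treats libraries as unpaired and cannot go below 0.1 here, so it could not separate groups at 0.05. Against the N2 library of the same number, each xnp-1;gsox-1 library was lower on both measures. Each xnp1 L1 library was higher than its N2 counterpart on the median alone. The X minus autosome median averaged -0.38 ± 0.22 in xnp1 embryos, against -0.33 ± 0.01 in N2 embryos (p = 1, exact). It averaged -0.65 ± 0.02 in gsox-1 larvae and -0.90 ± 0.08 in xnp-1;gsox-1 larvae, against -0.72 ± 0.14 in N2 larvae (SD, n = 3 each; exact permutation p = 0.6 and 0.2).

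**Figure D3:**
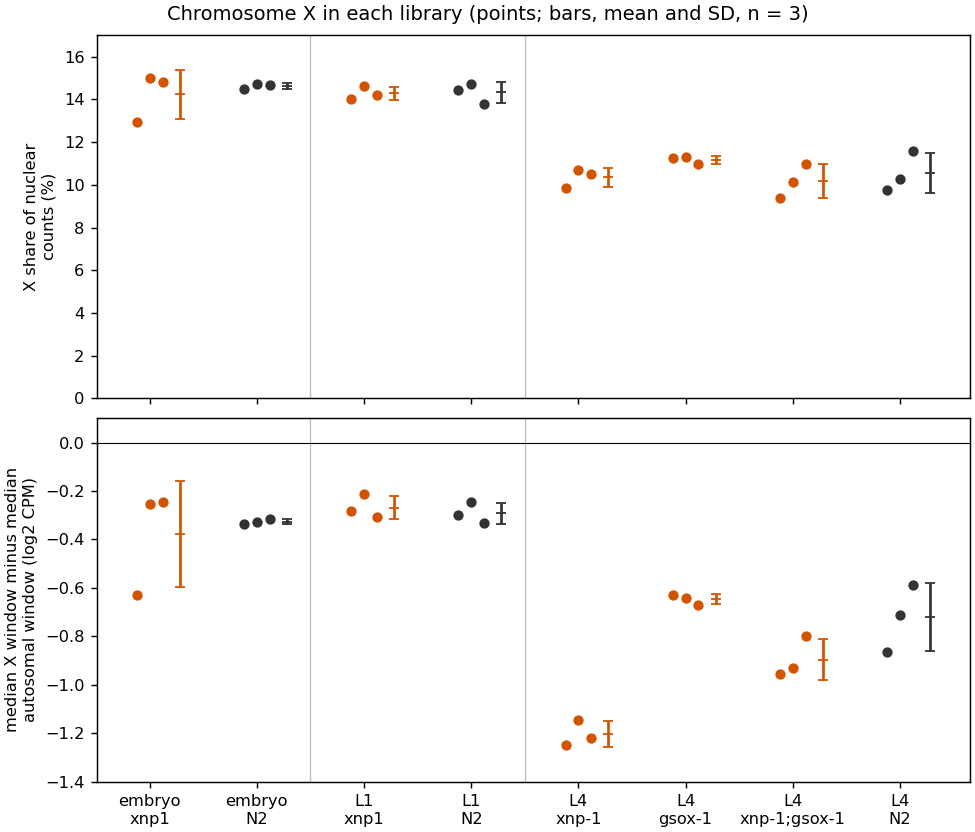
Each library's share of nuclear counts from X genes in percent (top) and its median log2 CPM of X windows minus that of autosomal windows (bottom), for the 8 groups; points are libraries and bars the mean ± SD of 3. In the lower plot the xnp-1 L4 libraries, at -1.25 to -1.14, lie below all N2 L4 libraries, while in the upper plot the groups overlap.

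The 6 X windows with the largest increases in xnp-1 L4 larvae were led by genes of yolk, the uterine lumen and cuticle collagens. These windows, and the 6 with the largest decreases below, were chosen among windows whose xnp-1 and N2 libraries did not overlap. The separation of these libraries in them is therefore part of the choice. Window X_69 (chrX:3400001-3450000), in which the vitellogenin gene vit-5 gave 76.3% of L4 counts, had 3454, 4537 and 5113 CPM in xnp-1 larvae, against 93.4, 119 and 125 CPM in N2 larvae. Each xnp-1 library was far above all N2 libraries (log2 change 5.28, SE 0.19, adjusted p = 2.26e-08). In gsox-1 larvae the window had 119, 127 and 121 CPM, and in xnp-1;gsox-1 larvae 138, 120.0 and 109 CPM, so both overlapped N2. Of its 17 genes 10 were tested, and the neighbours ZK813.1, ZK813.2 and ZK813.3 rose too, by 10.35, 11.30 and 10.19 on the log2 scale.

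Window X_238 (chrX:11850001-11900000) rose most, with 896, 717 and 847 CPM in xnp-1 larvae, against 6.80, 10.7 and 8.73 CPM in N2 larvae (log2 change 6.55, SE 0.23, adjusted p = 2.26e-08). It stood at 5.61, 6.89 and 7.97 CPM in gsox-1 larvae and at 13, 13.8 and 10.9 CPM in xnp-1;gsox-1 larvae; the gsox-1 libraries overlapped N2, and the xnp-1;gsox-1 libraries lay just above it without being called. The leading gene ule-5, known as a uterine lumen expressed gene, gave 33.8% of its counts. It had 288, 263 and 318 CPM in xnp-1 larvae, against 0, 1.07 and 0.736 CPM in N2 larvae (adjusted p = 0.000158). Here the increase was shared by neighbours: Y62H9A.3 and Y62H9A.4 rose by 9.35 and 9.66, and F54F7.6 by 3.43, on the log2 scale.

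The other 4 windows were each led by a single collagen gene; collagens are the main proteins of the cuticle, and different ones serve different larval and adult cuticles. Window X_9 (chrX:400001-450000) had 2741, 2528 and 2415 CPM in xnp-1 larvae, against 52.7, 150.1 and 109 CPM in N2 larvae (log2 change 4.62, SE 0.39, adjusted p = 6.0e-06). The adult-specific collagen gene col-19 gave 90.0% of its counts. Window X_270 (chrX:13450001-13500000), led by col-184, had 2263, 1766 and 1612 CPM in xnp-1 larvae, against 96.2, 209.6 and 95.2 CPM in N2 larvae (log2 change 3.81, SE 0.42, adjusted p = 3.34e-05). No library of one group reached the other in either window, which the choice of windows required.

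Window X_224 (chrX:11150001-11200000), led by col-178, had 2613, 2248 and 2125 CPM in xnp-1 larvae, against 107, 218 and 172 CPM in N2 larvae (log2 change 3.81, SE 0.28, adjusted p = 3.01e-06). Window X_243 (chrX:12100001-12150000), led by col-181, had 3709.8, 3282 and 3018 CPM in xnp-1 larvae, against 192, 514 and 196 CPM in N2 larvae (log2 change 3.47, SE 0.48, adjusted p = 0.000157). In all 4 collagen windows the rest of the window did not follow its leading gene. Without that gene the log2 change was -0.37 in X_9, -0.73 in X_270, -1.90 in X_224 and -1.82 in X_243. In X_243, for example, pycr-1, a gene of proline synthesis, fell by 3.14 on the log2 scale (adjusted p = 2.83e-05).

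The 6 X windows with the largest decreases were led by mlt-9, col-175, dpy-7, H42K12.3, lpr-3 and dbd-18. Window X_303 (chrX:15100001-15150000) had 12.1, 26.6 and 25.5 CPM in xnp-1 larvae, against 319.8, 233 and 314 CPM in N2 larvae (log2 change -3.76, SE 0.34, adjusted p = 9.98e-06). Its leading gene mlt-9, needed for moulting, gave 94.5% of its counts. In gsox-1 larvae the window stood at 333, 264 and 441 CPM and in xnp-1;gsox-1 larvae at 175, 289.9 and 262 CPM, both overlapping N2.

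Window X_151 (chrX:7500001-7550000), led by dpy-7, a collagen gene of the furrow type needed for body shape, had 31.2, 47.9 and 41.6 CPM in xnp-1 larvae, against 602, 195 and 374 CPM in N2 larvae (log2 change -3.28, SE 0.47, adjusted p = 0.000188). N2 libraries varied here, with the lowest of them above every xnp-1 library, as the choice of windows required. Another collagen gene of the window, col-174, fell as well, by 3.16 on the log2 scale. Window X_185 (chrX:9200001-9250000), led by col-175, had 107, 174 and 153 CPM in xnp-1 larvae, against 2203, 1959.7 and 985 CPM in N2 larvae (log2 change -3.57, SE 0.50, adjusted p = 0.000173). The change without col-175 was -0.30 and missed the threshold (adjusted p = 0.12).

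Window X_222 (chrX:11050001-11100000) fell through a cluster of neighbours. It had 102, 166 and 154 CPM in xnp-1 larvae, against 1039, 586 and 1832 CPM in N2 larvae (log2 change -3.03, SE 0.43, adjusted p = 0.000188). The adjacent lipocalin-related genes lpr-3, lpr-4, lpr-5 and lpr-6, of a family with members needed for the matrix that lines epithelia, fell by 3.90, 4.26, 4.09 and 4.50 on the log2 scale. Window X_27 (chrX:1300001-1350000) had 37.1, 61.6 and 60.6 CPM in xnp-1 larvae, against 538, 350.0 and 511 CPM in N2 larvae (log2 change -3.13, SE 0.32, adjusted p = 2.14e-05). Its leading gene H42K12.3 fell by 4.33, while pdk-1, a kinase gene of insulin signalling, rose by 1.27 in the same window. Without H42K12.3 the change of X_27 was -0.30 and missed the threshold (adjusted p = 0.106).

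Window X_6 (chrX:250001-300000) had 5.09, 6.42 and 4.70 CPM in xnp-1 larvae, against 57.7, 21.4 and 46.0 CPM in N2 larvae (log2 change -2.95, SE 0.33, adjusted p = 4.03e-05). It was led by dbd-18, with 97% of counts, and rose by 1.63 on the log2 scale without it. None of these 12 windows passed the threshold in xnp1 embryos, xnp1 L1 larvae, or gsox-1 or xnp-1;gsox-1 L4 larvae. The plot of their levels by library shows all 4 L4 groups.

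**Figure D4:**
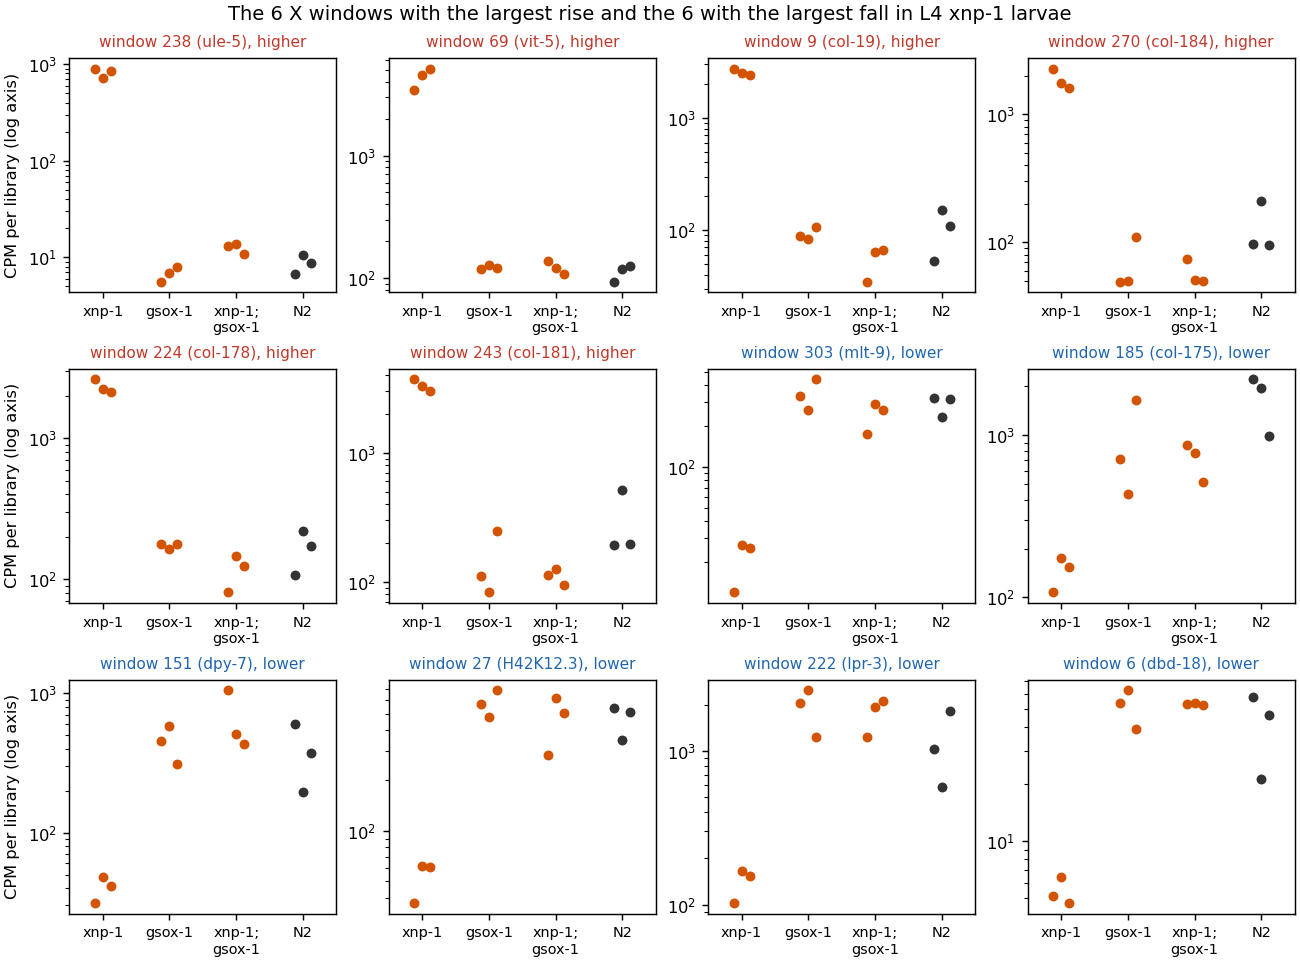
CPM of each library (log axis) in the L4 groups (xnp-1, gsox-1, both, N2), for the 6 X windows with the largest increases and the 6 with the largest decreases in xnp-1 larvae. Windows were named only if their xnp-1 and N2 libraries did not overlap, so the gap between these points in every panel follows from that choice. In window X_69 the 3 xnp-1 points lie at 3454 to 5113 CPM against 93.4 to 125 CPM in N2.

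Decreases were found along the whole chromosome. With the X windows parted into 3 equal stretches, 15 rose and 55 fell on the left, 10 rose and 56 fell in the middle and 20 rose and 44 fell on the right. Of 4 equal classes by mean level, 18 rose and 21 fell in the lowest, and 11 rose and 56 fell in the highest. Of windows in which a single gene gave over 50% of counts 87 of 197 fell, and of the other windows 68 of 158. Within the 155 lower windows the genes were mixed: 154 held at least 1 gene called lower, and 73 of them also held a gene called higher. In the 45 higher windows 31 held a gene called lower. For reference, of the 155 X windows not called, 114 held a gene called lower and 95 a gene called higher. Over single genes, 378 of 2492 tested X genes rose and 738 fell, while 24.6% of autosomal genes rose and 24.6% fell.

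The longest run of neighbouring lower windows covered 14 windows (chrX:6400001-7100000), with log2 changes of -1.85 to -0.31 and a median of -0.66. The genes named here were chosen after their values were seen. The troponin T gene mup-2 averaged 439 ± 28.8 CPM in xnp-1 larvae, against 906 ± 85.1 CPM in N2 larvae (SD, n = 3 each). The cathepsin gene cpr-6 averaged 401 ± 32.4 CPM in xnp-1 larvae, against 1124 ± 246 CPM in N2 larvae, and the disulfide isomerase gene pdi-6 averaged 283 ± 29.1 CPM in xnp-1 larvae, against 681 ± 126 CPM in N2 larvae. All were called lower, as were 38 of the run's 114 tested genes, while 18 were called higher. Over all tested X genes 29.6% were called lower and 15.2% higher, so the run's genes were near that share. The median of the same 14 windows was -0.08 in xnp1 embryos, -0.04 in xnp1 L1 larvae, -0.02 in gsox-1 L4 larvae and -0.10 in xnp-1;gsox-1 L4 larvae, and none was called there.

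The longest run of neighbouring higher windows covered 7 windows (chrX:1650001-2000000), with log2 changes of 1.07 to 4.30 and a median of 1.96. Among its genes are meg-3 and meg-4, which encode scaffold proteins of P granules, and the ONECUT homeobox genes ceh-39, ceh-21 and ceh-41. The gene meg-3 had 57.7, 49.4 and 62.0 CPM in xnp-1 larvae, against 3.19, 5.44 and 2.79 CPM in N2 larvae (log2 change 3.89, adjusted p = 5.46e-06). Its neighbour meg-4 rose by 6.63, to 29.2, 26.8 and 37.6 CPM in xnp-1 larvae, against 0.0997, 0.439 and 0.392 CPM in N2 larvae. Of the 34 tested genes in the run 16 rose and 3 fell, while 15.2% of all tested X genes rose and 29.6% fell. The same 7 windows had log2 changes of 0.20 to 0.56 in xnp1 embryos and 0.18 to 0.39 in xnp1 L1 larvae, all above 0 with none called. In the embryos the oocyte list summed to 1490, 744 and 742 CPM in xnp1 libraries, against 882, 829 and 752 CPM in N2 libraries. Only xnp1 replicate 1, the library that stood apart, was above N2, and the other xnp1 libraries were below every N2 library. In L1 larvae the oocyte list summed to 426, 570 and 665 CPM in xnp1 libraries, against 262, 526 and 443 CPM in N2 libraries. The germline list summed to 801, 512 and 500 CPM in xnp1 embryos, against 524, 487 and 487 CPM in N2 embryos. At L1 it summed to 346, 466 and 493 CPM in xnp1 larvae, against 212, 348 and 335 CPM in N2 larvae. The part of these levels was not tested.

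Among the X members of the gene lists, the yolk genes rose most; the median over all tested X genes was -0.34, and over all tested genes of the genome -0.16, with 23.3% called higher and 25.3% lower. All 5 X-linked vitellogenin genes, which encode the yolk proteins that the adult hermaphrodite intestine makes for the oocytes, were called higher in xnp-1 larvae, by 5.03 to 8.29 on the log2 scale. The gene vit-2 had 5382, 8156 and 10294 CPM in xnp-1 larvae, against 9.72, 173 and 101 CPM in N2 larvae (adjusted p = 0.000454). The gene vit-1 had 1592, 2273 and 2356 CPM in xnp-1 larvae, against 31.5, 71.4 and 87.5 CPM in N2 larvae (adjusted p = 5.11e-06). N2 replicate 1 was the lowest library for all 5 genes. Vitellogenin genes are close copies of one another, so their single values are uncertain. The intestinal GATA factor gene elt-2 went the other way, with 26.2, 32.4 and 27.8 CPM in xnp-1 larvae, against 47.4, 42.1 and 43.2 CPM in N2 larvae (log2 change -0.62, adjusted p = 0.0041). The other 2 tested intestine genes on X were not called.

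Of 30 collagen genes on X, 25 were tested; 5 rose and 15 fell in xnp-1 larvae, with a list median of -2.45. Those that rose were col-19, col-178, col-179, col-181 and col-184, by 4.35 to 7.03 on the log2 scale. Those that fell included the furrow collagens dpy-3, dpy-7 and dpy-8, by 4.47, 4.83 and 4.23. The gene dpy-3 had 2.00, 15.4 and 9.81 CPM in xnp-1 larvae, against 236, 90.9 and 277 CPM in N2 larvae (adjusted p = 0.000221). Over all tested X genes 15.2% were called higher and 29.6% lower. Collagen genes moved in both directions on the autosomes too, with 27 called higher and 70 lower of 133 tested (median -1.82). Collagen genes resemble one another in sequence, so single values carry that uncertainty.

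Of 11 tested muscle genes on X, 8 were called lower and none higher, with a list median of -0.73. The other 3, tnt-3, myo-2 and act-4, had log2 changes of 0.00, -0.09 and -0.21. Over all tested X genes 29.6% were called lower. Of the 22 autosomal muscle genes of the list, 5 were called lower and 0 higher (median -0.37), near the 24.6% lower over all tested autosomal genes. The troponin I gene tni-1 had 52.3, 56.7 and 51.6 CPM in xnp-1 larvae, against 184, 179 and 169 CPM in N2 larvae, with no overlap (log2 change -1.73, SE 0.17, adjusted p = 1.14e-05). The myosin light chain genes mlc-2 and mlc-1, near-identical copies, fell by 1.23 and 0.71, and the attachment gene unc-97 by 1.26. The calls of sgca-1, tnt-2 and unc-27 in this list were lost when single libraries were left out: sgca-1 without N2 replicate 1 or xnp-1 replicate 1 or 2, tnt-2 without any single library of these groups except N2 replicate 1, and unc-27 without N2 replicate 1 or xnp-1 replicate 2 or 3.

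Of 37 neuropeptide genes on X, 32 were tested, of which 11 were called lower and none higher, with a median of -0.57. The share over all tested X genes was 29.6% lower and 15.2% higher. Of 99 tested autosomal neuropeptide genes, 36 were called lower and 4 higher (median -0.59). The gene flp-11, which encodes FMRFamide-like peptides, had 20.5, 21.1 and 13.9 CPM in xnp-1 larvae, against 35.1, 33.3 and 32.7 CPM in N2 larvae (log2 change -0.87, adjusted p = 0.0029). The insulin-like gene ins-9 fell by 2.06, from few counts. The calls of flp-7, flp-8, flp-12, nlp-1 and nlp-76 were lost without xnp-1 replicate 2 or without xnp-1 replicate 3, and without further single libraries. None of the 5 X genes of the general neuron list was called (median -0.41), nor any of the 4 X genes of the heterochronic list of developmental timing (median -0.38). Autosomal members of both lists did move. Of 13 tested autosomal neuron genes, 6 were called lower and 1 higher. Of 5 autosomal heterochronic genes, lin-28 and lin-41 were called higher and lin-42 and lin-29 lower.

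In the list of sex signals and dosage compensation, 3 of 6 X genes were called higher and none lower (median 0.65). Over all tested X genes 15.2% were called higher. The autosomal members moved likewise, with 4 of 8 called higher and 0 lower (median 0.87), so the rise was not particular to X. The gene ceh-39, an X signal element that counts X chromosomes in the early embryo, had 24.9, 24.5 and 29.1 CPM in xnp-1 larvae, against 0.897, 2.63 and 2.23 CPM in N2 larvae (log2 change 3.77, SE 0.44, adjusted p = 3.93e-05). The dosage compensation gene sdc-1 had 19.3, 23.5 and 27.1 CPM in xnp-1 larvae, against 4.24, 7.22 and 10.5 CPM in N2 larvae (log2 change 1.67, adjusted p = 0.00275). The X signal gene sex-1 rose by 0.80 (adjusted p = 0.0254), a call lost without N2 replicate 1 or without xnp-1 replicate 3. The X-linked H3.3 gene his-71 fell, with 27.1, 27.7 and 27.8 CPM in xnp-1 larvae, against 69.5, 66.4 and 73.9 CPM in N2 larvae (log2 change -1.35, SE 0.20, adjusted p = 0.000193). This was not shared by the whole H3.3 list. Of its 4 autosomal genes, his-74 was called higher and his-70 lower. Summed over the list, H3.3 RNA stood at 359 to 373 CPM in xnp-1 larvae, against 238 to 256 CPM in N2 larvae.

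**Figure D5:**
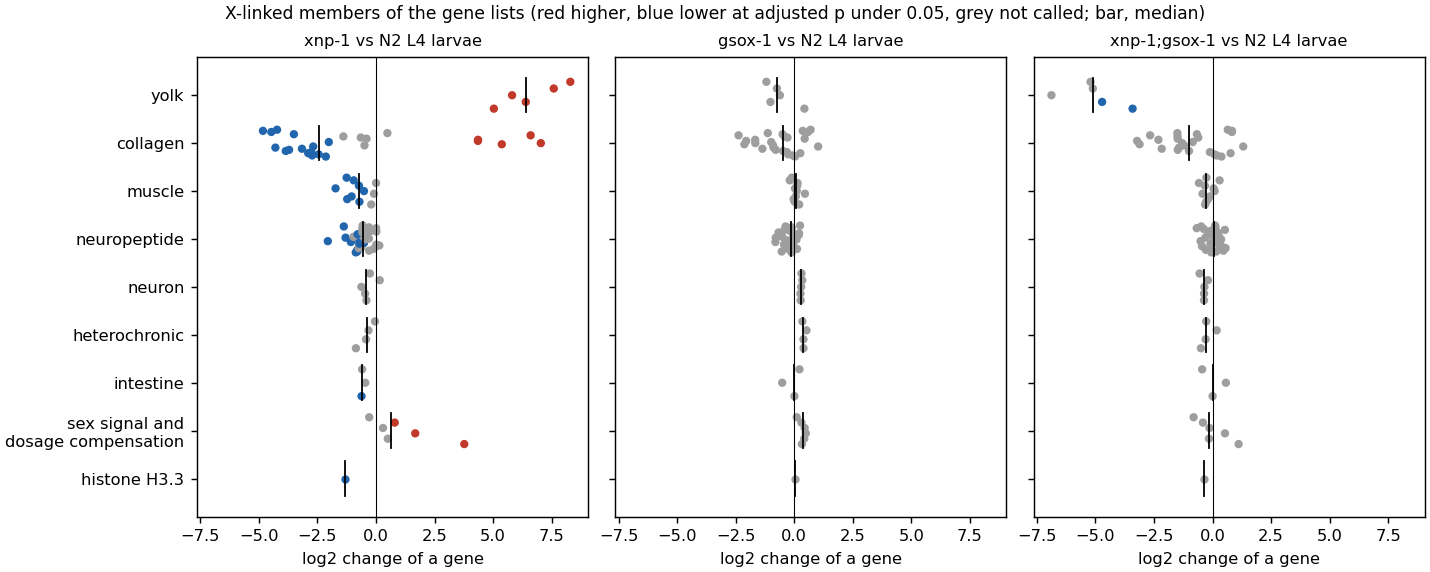
Log2 change of the tested X-linked members of each gene list (points; bars are list medians) in L4 larvae labelled xnp-1, gsox-1 or xnp-1;gsox-1, against N2. In xnp-1 larvae the yolk genes lie at 5.03 to 8.29 and the muscle list has a median of -0.73; in gsox-1 larvae the muscle median is 0.06.

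Outside the lists, the X genes with the largest increases in xnp-1 larvae included ttr-42, of the transthyretin-related family, with 35.2, 25.3 and 28 CPM in xnp-1 larvae and no count in any N2 library. It was at least 1255-fold higher, taking a floor of 3 counts over the N2 group. R04D3.3 had 109, 101 and 127 CPM in xnp-1 larvae, against 0.0997, 0.0976 and 0.0981 CPM in N2 larvae (log2 change 10.11, SE 0.31, adjusted p = 9.84e-09). Among the largest decreases, spia-1 had 1.43, 5.61 and 5.27 CPM in xnp-1 larvae, against 241, 74.9 and 103 CPM in N2 larvae (log2 change -5.08, SE 0.59, adjusted p = 4.19e-05). The saposin-like gene spp-13 fell by 4.95 and C26B9.7 by 6.07 on the log2 scale.

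In gsox-1 L4 larvae the X windows lay close to N2. The median log2 change was 0.04 over X windows and -0.02 over autosomal windows. Both edgeR and DESeq2 called 0 X windows, with 9 at an unadjusted p under 0.05 in edgeR, 3 higher and 6 lower, and 0.0608% of autosomal windows were called. Of X genes edgeR called 0, with 103 at an unadjusted p under 0.05, and DESeq2 called 7, against 0.0267% of autosomal genes in edgeR. The troponin gene tni-1 stood at 181, 188 and 172 CPM in gsox-1 larvae, against 184, 179 and 169 CPM in N2 larvae, and his-71 at 70.9, 67.5 and 77.2 CPM in gsox-1 larvae, against 69.5, 66.4 and 73.9 CPM in N2 larvae. Both overlapped. The oocyte list summed to 246 to 353 CPM in gsox-1 larvae, against 222 to 503 CPM in N2 larvae.

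In xnp-1;gsox-1 L4 larvae 1 X window was called, and it fell. This was X_75 (chrX:3700001-3750000), with 57.1, 75.3 and 63.7 CPM in xnp-1;gsox-1 larvae, against 134, 137 and 109.7 CPM in N2 larvae. The groups did not overlap (log2 change -0.96, SE 0.13, adjusted p = 0.0193). It stood at 68.5, 66.2 and 56.4 CPM in xnp-1 larvae and at 118, 118 and 112 CPM in gsox-1 larvae, so both groups with the xnp-1 label were lower than N2 and the gsox-1 group overlapped it. The call was lost without xnp-1;gsox-1 replicate 3, N2 replicate 1 or N2 replicate 2 (adjusted p = 0.0543, 0.0533 and 0.0834), and when only these groups were fitted. Among autosomal windows 0.365% were called. At an unadjusted p under 0.05 there were 66 X windows, 55 lower and 11 higher, and DESeq2 called 17, of which 15 were lower. With the replicate number as a block 2 were called.

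The gene tag-18 gave 85.5% of the L4 counts of X_75, and the change of the window without it was 0.13. It had 31.9, 58.6 and 49.4 CPM in xnp-1;gsox-1 larvae and 58.3, 56.4 and 48.4 CPM in xnp-1 larvae, against 109.8, 128 and 98.6 CPM in N2 larvae (adjusted p = 0.0184 and 0.00164). Its call in xnp-1;gsox-1 larvae was lost without xnp-1;gsox-1 replicate 3 or N2 replicate 2. The L4 comparisons share the N2 libraries, while the decrease in xnp1 embryos given above comes from other libraries. In xnp1 L1 larvae tag-18 was not called (log2 change -0.52, adjusted p = 0.718).

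Over all X windows the median change in xnp-1;gsox-1 larvae was -0.10, against 0.03 for autosomal windows, and libraries did not overlap in 48 X windows that were lower and 12 that were higher, 13.5% and 3.38%, against 6.99% and 7.54% of autosomal windows. Of X genes 7 rose and 15 fell, while 1.07% of autosomal genes were called. DESeq2 called 140 X genes, 106 of them lower, and the groups fitted alone gave 1, which was higher. The count was 8 without xnp-1;gsox-1 replicate 2 or 3, 14 without N2 replicate 2 and 10 without N2 replicate 3. C49F5.6 had 13.2, 14.4 and 17.9 CPM in xnp-1;gsox-1 larvae, against 1.74, 1.61 and 1.86 CPM in N2 larvae (log2 change 3.12, SE 0.25, adjusted p = 0.000283). It was clear of N2 in every library. The germ granule gene meg-4 also rose, with 1.48, 2.27 and 2.79 CPM in xnp-1;gsox-1 larvae, against 0.0997, 0.439 and 0.392 CPM in N2 larvae (log2 change 2.80, adjusted p = 0.023), a call lost without replicate 2 or 3 of either group.

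The yolk genes vit-1 and vit-2 fell. The gene vit-1 had 3.63, 7.34 and 6.89 CPM in xnp-1;gsox-1 larvae, against 31.5, 71.4 and 87.5 CPM in N2 larvae (log2 change -3.41, SE 0.39, adjusted p = 0.00242). On the log2 scale vit-2 fell by 4.72 (adjusted p = 0.0477), a call that held only with all libraries or without N2 replicate 1 among the sets with 1 library left out. The other 3 vitellogenin genes on X were not called. The summed oocyte list stood at 177 to 415 CPM in xnp-1;gsox-1 larvae, against 222 to 503 CPM in N2 larvae. No other X member of a list was called in xnp-1;gsox-1 larvae, and none in gsox-1 larvae, xnp1 embryos or xnp1 L1 larvae.

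Set directly against xnp-1 larvae, xnp-1;gsox-1 larvae had 134 X windows higher and 51 lower, 52.1% of 355, with a median log2 change of 0.20. Of autosomal windows 49.8% were called, with a median of -0.03. This comparison and that of xnp-1 with N2 share the xnp-1 libraries, so the values are given side by side only. Of 25 collagen genes on X, 14 were higher and 5 lower in xnp-1;gsox-1 than in xnp-1 larvae. Of 32 neuropeptide genes on X, 16 were higher and 0 lower. Of 11 muscle genes on X, 7 were higher and 0 lower. Over all tested X genes 24.8% were called higher and 14.8% lower, and over autosomal genes 21.8% and 23.1%. Among autosomal members, 46 of 133 collagen genes were higher and 27 lower. Autosomal neuropeptide genes were higher in 42 and lower in 5 of 99, and muscle genes in 2 and 1 of 22. All 5 X-linked vitellogenin genes were lower. The X signal gene ceh-39 had 2.87, 4.41 and 5.20 CPM in xnp-1;gsox-1 larvae, against 24.9, 24.5 and 29.1 CPM in xnp-1 larvae (log2 change -2.65, SE 0.41, adjusted p = 0.000341). The 155 windows lower in xnp-1 larvae had a median change against N2 of -0.81 in xnp-1 larvae, -0.12 in xnp-1;gsox-1 larvae and -0.01 in gsox-1 larvae. The 45 higher windows had a median of 1.31 in xnp-1 larvae, 0.02 in xnp-1;gsox-1 larvae and 0.05 in gsox-1 larvae.

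Whether the gsox-1 label had a different effect with and without the xnp-1 label was tested as the difference of both effects over the 4 L4 groups, a comparison added after the data were seen. It was called in 141 X windows, 39.7%, with 105 higher and 36 lower and a median of 0.17, while 38.9% of autosomal windows were called with a median of -0.02. All 12 windows described above were among them. These 12 were chosen by their change between xnp-1 and N2 larvae. The same libraries enter this difference, so the calls of these windows are not independent of that choice. With counts scaled by library totals alone, the difference had 77 higher and 41 lower X windows, and its median over all windows moved to -0.13, against 0.00 with the main scaling.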

How the data were processed

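Both tables of poly(A) RNA hold whole-number counts per gene that the authors deposited without normalization. Per the file headers, counts were made with featureCounts 2.0.1 for embryos and L1 larvae, as read pairs with reverse strand, a minimum mapping quality of 10 and a minimum overlap of 60 bases, and with featureCounts 2.0.6 for L4 larvae, as single reads of pairs with reverse strand and the same mapping quality, on the WormBase WS280 gene set. The submitters' processing notes also name FastQC, Trim Galore, STAR and SAMtools; the aligner settings are not given in the sources used here. Coordinates are those of the deposited tables. Symbols came from a gene name table, which matched 5562 of the 6021 X genes. Clone names took the RefSeq symbol of their locus where there was one, and unmatched genes kept their identifier. The small RNA table of the series was not used here.

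Counts were summed per 50 kb window, and windows and genes were tested separately, each table on its own, with edgeR 4.0.16 (filterByExpr, TMM, robust quasi-likelihood, 4 groups in one fit) and Benjamini-Hochberg adjustment over all windows or genes of the genome, at 0.05. CPM of single windows and single genes are TMM-normalised separately, so the 2 sets are not to be compared. Summed CPM of the gene lists, and the X and autosome medians per library, were scaled by library totals alone. They are not to be compared with the TMM-normalised values. SE of log2 changes were taken from the F statistic. Of X genes, 2589 passed the filter in the embryo and L1 table and 2492 in the L4 table. X shares and medians were compared by exact permutation tests. DESeq2 1.42.0, RLE and library-total scaling, TMM from autosomes, no filter, groups fitted alone, no leading gene per window, a replicate block and leaving out each library were alternatives. Leaving out both L4 libraries rich in mitochondrial counts, the gene-level alternatives, and the difference of the gsox-1 effects were chosen after seeing the data. In simulated counts 94% of windows changed 2-fold were recovered for embryos and 86.5% for xnp-1 L4 larvae, but 4% and 2.5% of genes. Each simulation changed 200 windows or genes, whereas 8492 of 17492 genes were called in xnp-1 L4 larvae. The adjustment therefore acts differently there, and the simulated shares do not give the recovery in that comparison.

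Named windows were, per comparison and direction, the 6 with the largest change among those called, with a mean of at least 3 log2 CPM and no overlap of libraries; named genes were the window's gene with most counts and up to 3 called genes, X members of 12 gene lists, and the top of up to 12 called X genes per direction. Windows and lists were chosen with earlier results of these data known. Replicate numbers are shared in the labels. Same-numbered libraries deviated together in L1 larvae (correlations of 0.86 to 0.91) and for xnp-1 (0.34 to 0.56) and xnp-1;gsox-1 (0.48 to 0.81) with N2 at L4, so there the numbers pair libraries, by the data and not by a stated batch; in embryos and for gsox-1 they do not.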

Additional observations from a re-analysis of the deposited data

Results flagged for a closer look

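The effect of the gsox-1 label on X windows differed between larvae with and without the xnp-1 label in 141 of 355 X windows at an adjusted p under 0.05 (edgeR quasi-likelihood test of the difference of both effects). This is 39.7% of X windows, near the 38.9% of autosomal windows called in the same test. Negative values mean that gsox-1 lowered a window more in the xnp-1 background than in the N2 background. Among the windows with the largest increases in xnp-1 larvae, the difference was -5.67 on the log2 scale in X_238 (adjusted p = 4.26e-07), led by ule-5, and -5.28 in X_69 (adjusted p = 4.26e-07), which holds vit-5. In the windows led by collagen genes it was -5.38 in X_9 (adjusted p = 4.8e-05), -4.08 in X_270 (adjusted p = 0.000437), -4.38 in X_224 (adjusted p = 3.23e-05) and -3.88 in X_243 (adjusted p = 0.00117).

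Among the windows with the largest decreases in xnp-1 larvae the difference was positive. It was 3.24 in X_303 (adjusted p = 0.000469), led by mlt-9, and 3.84 in X_151 (adjusted p = 0.00111), led by dpy-7. It was 3.20 in X_185 (adjusted p = 0.00369), 2.83 in X_27 (adjusted p = 0.000748), 2.91 in X_222 (adjusted p = 0.00311) and 2.98 in X_6 (adjusted p = 0.000724). These windows were chosen by their change in xnp-1 larvae, whose libraries enter the difference too, so its direction here is not independent of that choice. The groups of 3 libraries were too small for a check of single libraries far from the others.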

How the results depend on the processing

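The count of X windows called in xnp-1 L4 larvae ran from 171 to 241 over all alternatives, 36 to 55 of them higher, and was 213 with the replicate block; X genes called ran from 891 to 1284 there, with 1165 under the block. For the windows against xnp-1 larvae the range was 161 to 224, with 198 under the block, and for the difference of the gsox-1 effects 103 to 179, with 156 under the block. Counts near 0 moved. DESeq2 called 3 X windows in embryos, 1 in L1 larvae and 17 in xnp-1;gsox-1 larvae, and leaving out each window's leading gene gave 2, 1 and 3. In xnp-1;gsox-1 larvae the block gave 2, the groups fitted alone 0, both replicate 1 libraries left out 9, and single libraries left out 0 to 2. Of X genes in embryos, DESeq2 called 47, library totals 12, no filter 16, the block 22, groups alone 49, and single libraries left out 3 to 8. In L1 larvae DESeq2 called 11, RLE 1, the block 5, groups alone 1, and single libraries left out 1 to 3. DESeq2 called 1 X gene for the stage difference and 7 in gsox-1 larvae. In xnp-1;gsox-1 larvae DESeq2 called 140, groups alone 1, both replicate 1 libraries left out 41, and single libraries left out 8 to 27. The causes were not tested.

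With 1 library left out, the difference in X share ran, in percentage points, from -0.753 to 0.277 in embryos (0.277 without xnp1 replicate 1), -0.301 to 0.169 in L1 larvae, and at L4 from -0.566 to 0.337 for xnp-1, 0.249 to 1.15 for gsox-1 and -0.782 to 0.143 for xnp-1;gsox-1. For the X minus autosome median these ranges were -0.116 to 0.0761, -0.0036 to 0.0469, -0.556 to -0.417, 0.00159 to 0.140 and -0.248 to -0.109 in the same order. Over genes it was 0.000814 in embryos, -0.0614 in L1 larvae and 0.0265 in xnp-1 larvae, and without leading genes -0.0435 in L1 larvae. Of 180 values for the 12 named windows, 173 kept direction and call. Those that did not came from leaving out the leading gene, which reversed X_9 to -0.37, X_270 to -0.73, X_224 to -1.90, X_243 to -1.82 and X_6 to 1.63, and X_75 in xnp-1;gsox-1 larvae to 0.13. Of the 115 X genes named by rule in xnp-1 larvae, 21 lost their call under some alternative, as did 21 of 22 in xnp-1;gsox-1 larvae and 3 of 6 in embryos. A gene that was not called is not shown to be unchanged. In simulated data few genes changed 2-fold were recovered, though far fewer genes were changed there than were called in xnp-1 L4 larvae. With the block, X windows in embryos, L1 larvae and gsox-1 larvae stayed at 0 called; same-numbered libraries had correlations of -0.23 to 0.13 in embryos and -0.67 to -0.27 for gsox-1, where the numbers do not pair them.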
